A study of Homo sapiens with 6 samples.

Results

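Cadherins and protocadherins are calcium-dependent adhesion proteins of the cell surface, and their RNA was measured here in the D283 Med line, which derives from a childhood medulloblastoma (a tumour of the cerebellum). Members were all rows of the deposited table whose symbol starts with CDH and a digit, or with PCDH, without a hyphen and without a pseudogene suffix of P and a number. The rule used no measured value, although the members were chosen with earlier results of these data known. It found 84 genes among 31785 rows. Of these, 3 are pseudogenes by name (PCDHB18P, PCDHB19P and PCDHGB9P). The design compared 3 libraries labelled Musashi-1 knockdown with 3 labelled WT, all of the same line. It asked how the transcriptome responds to less Musashi-1. This protein, made from MSI1, binds RNA and is known from neural stem cells. The method of knockdown, any construct in the WT cells and the cultures behind the libraries are not described in the labels. The p-values thus speak only of library-to-library spread, which may be technical. The columns used as WT have a heading of unexplained letters, and were assigned to WT because the other 3 are headed as knockdown.

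Classical cadherins bind the same cadherin on the neighbouring cell through their outermost domains and hold the actin cytoskeleton through catenins on their inner tail. Type I members such as N-cadherin (CDH2) give strong adhesion, while type II members sort neurons into groups. Protocadherins lack the catenin-binding tail. The delta protocadherins stand alone in the genome, whereas the alpha, beta and gamma protocadherins lie in a single array on chromosome 5, where each alternate alpha or gamma exon has its own promoter and neurons choose among them to label themselves. N-cadherin is known in the cerebellum for the adhesion of granule neuron progenitors and their migration.

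Promoters of the clustered protocadherins are known for a conserved sequence element with the core CGCT, and its letters could be read ahead of the alternate alpha exons. Each stretch below is 30 bases of the plus strand of chromosome 5, taken from the RefSeq promoter table (GRCh38.p14), with the letters TGTCGCT in capitals. They are shown because PCDHA10, PCDHA11 and PCDHA12 had the most reads among the alternate alpha genes, and PCDHA8 is a nearly silent one for comparison.
PCDHA8 (chr5:140841132-140841161): aagccacatgaTGTCGCTgtctaccaagaa
PCDHA10 (chr5:140855843-140855872): aagccaccggaTGTCGCTgtcgtccacaaa
PCDHA11 (chr5:140868885-140868914): taggcgcaaggTGTCGCTctttacttggtg
PCDHA12 (chr5:140875246-140875275): cagtcacatgaTGTCGCTctacactcagaa

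In a search of both strands over the 250 bases before the RefSeq start, TGTCGCT was found in 8 of the 9 alternate alpha members with a promoter in the table, all but PCDHA9. It was found in 0 of 2 alpha C-type members (PCDHAC1 and PCDHAC2), 1 of 13 beta members, 3 of 18 alternate gamma members, 0 of 1 gamma C-type member, 1 of the 21 remaining members, and 462 of all 35116 promoters of that length (1.32%). The word was picked after these promoters had been compared, so the counts describe the letters and test nothing. The table held a promoter for 64 of the 84 members.

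The other sequences bear on Musashi-1 itself, whose mouse protein selected short RNAs of a purine, up to 3 uridines and AGU. The word GTAGT was searched together with its A-led form ATAGT. With another T these read GTTAGT for the G-led form and ATTAGT for the A-led form, and with a further T they read GTTTAGT for the G-led form and ATTTAGT for the A-led form. All were searched on the transcribed strand of the longest 3′ untranslated region (UTR) of each gene in GENCODE 29 (GRCh38). CDH2 held 5 matches in 1187 bases, and the 15 matches of PCDH10 included 4 of GTAGT. These are the genes called lower in knockdown, and PCDH18, whose level was higher, is given beside them through its 3 GTAGT matches. Capitals mark the word and U is written as T. CDH2 and PCDH18 are on the minus strand and PCDH10 is on the plus strand.
CDH2 (chr18:27952048-27952077): ggctttaactttGTAGTctactagcacagt
CDH2 (chr18:27951868-27951897): tttcagattggaATTAGTtttctgtttaag
CDH2 (chr18:27951440-27951469): ttcactgtaaaaATAGTatgtgtacataat
CDH2 (chr18:27951411-27951440): tgttttattggcATAGTctatggagaagtg
CDH2 (chr18:27951270-27951299): aattgttgagctGTAGTtagaatactcaat
PCDH10 (chr4:133190678-133190707): caaagacattctGTAGTttatacaccgtgt
PCDH10 (chr4:133191455-133191484): tatagcttaaatGTAGTcagtgtttgatta
PCDH10 (chr4:133193828-133193857): aagtctaattttGTAGTggtaaaggctttg
PCDH10 (chr4:133193924-133193953): ttacaccatggaGTAGTaaaattattttat
PCDH18 (chr4:137520224-137520253): tattccatccttGTAGTatgaaacatgctc
PCDH18 (chr4:137520107-137520136): gtctctcctaagGTAGTaaatataattgac
PCDH18 (chr4:137519491-137519520): atgggaatgaaaGTAGTaagccatattcca

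The density of these words was 4.21 per kb in CDH2, 3.30 in PCDH10, 3.20 in PCDH7, 3.12 in PCDH9, 2.99 in PCDH8 and 2.84 in PCDH18, against a median of 1.55 per kb over 11745 expressed genes with a UTR. It was 1.61 in CDH11, 1.51 in PCDH19, 1.29 in CDH22, 1.20 in CDH24, 0.93 in CDH20 and 0.65 in CDH23. High values thus included genes that were not called. The alpha genes share a single UTR of 2407 bases with 3 matches. At least 1 word occurred in the first 1000 bases of 76.7% of the 7264 expressed genes with a UTR that long. A match is a run of letters and was not tested as a binding site.

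Depth ran from 18895997 to 24442276 reads per library in knockdown and from 17299671 to 38790342 in WT. MSI1 had 1385, 1197 and 1281 normalised reads in knockdown libraries 1, 2 and 3, against 1586, 1572 and 1378 in WT libraries 1, 2 and 3. Knockdown 1 lay above WT 3, so the groups overlapped, and the difference of −0.21 (SE 0.12) on the log2-like scale did not pass (limma, adjusted p = 0.304), so "knockdown" below means the label. OTX2, MYC, NPR3, GABRA5 and CRX, markers of such tumours, were all expressed, while EOMES, LMX1A and BARHL1 of the same list lay under the filter. Epithelial markers summed to 6168 to 9663 normalised reads in knockdown libraries and 4523 to 12147 in WT libraries, nearly all of it KRT8, with 2 of 8 above the filter and EPCAM at most 4.61 normalised reads. Fibroblast markers summed to 2201 to 2375 in knockdown and 2215 to 2790 in WT, with 4 of 8 above the filter and THY1 near 0. Those above it averaged 1380 and 1278 (PDGFRA), 610 and 816 (PDGFRB), 236 and 285 (COL1A1), and 32.5 and 23.8 (COL1A2) in knockdown and WT. Endothelial markers summed to 942 to 1078 in knockdown and 788 to 835 in WT, with 3 of 8 above it and PECAM1 at 0 in all knockdown libraries. EGFL7 made up most of that sum, with means of 751 in knockdown and 563 in WT. VWF averaged 146 and 140, and KDR 61.3 and 72.2. The sum of 7 microglia markers was at most 43.0 normalised reads in every library and none passed the filter. WT 3 stood apart from WT 1 and WT 2 for several members, and their differences are given with and without it. The part of these marker levels in the results below was not tested.

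Each difference is the knockdown mean minus the WT mean of the deposited values, a scale that follows log2 for abundant genes and understates differences of weak ones. Normalised reads come from inverting that scale, and a fold is the ratio of group means. A gene was tested where its mean lay at least 1 above the lowest value of the table, about 27.6 normalised reads. This kept 15 of the 84 members, 6 cadherins, 6 non-clustered protocadherins and 3 alpha protocadherins, and left out 69. PCDH10 had the lowest mean of those kept, 49.2 normalised reads, which it owed to the WT libraries (22.6 in knockdown and 75.9 in WT). On the scale of the filter, CDH22 lay nearest the limit (1.23 above the lowest value), followed by PCDH10 (1.25). PCDHB12 lay just outside at 0.93, with a mean of 24.5 normalised reads. In bulk RNA, fewer cells that express a gene and less RNA per cell cannot be told apart.

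CDH2 and PCDH10 were called lower in knockdown, and no member was called higher (limma, adjusted p under 0.05, over 13558 genes). PCDH10 passed the filter only through its WT libraries (means of 22.6 normalised reads in knockdown and 75.9 in WT). Its call was lost when any single library was left out. Among all tested genes 2.32% fell and 1.78% rose, 4.1% in all. At an unadjusted p under 0.05, 5 members were lower and 2 higher, where 2976 of all 13558 tested genes passed that limit. The same share is the background of each such count below. Voom on the recovered reads called 2 members lower and 0 higher. Of the 15 tested members 13 had a lower mean, as did 49.0% of all tested genes. Their median difference was −0.29, beside 0.01 over all tested genes. Groups did not overlap in 5 members lower in knockdown, where the share of all genes was 13.6%, and in 2 members higher in knockdown, where it was 14.1%. A weak gene that is high in a single group can pass the filter through that group, so these counts describe the tested members only.

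**Figure D1:**
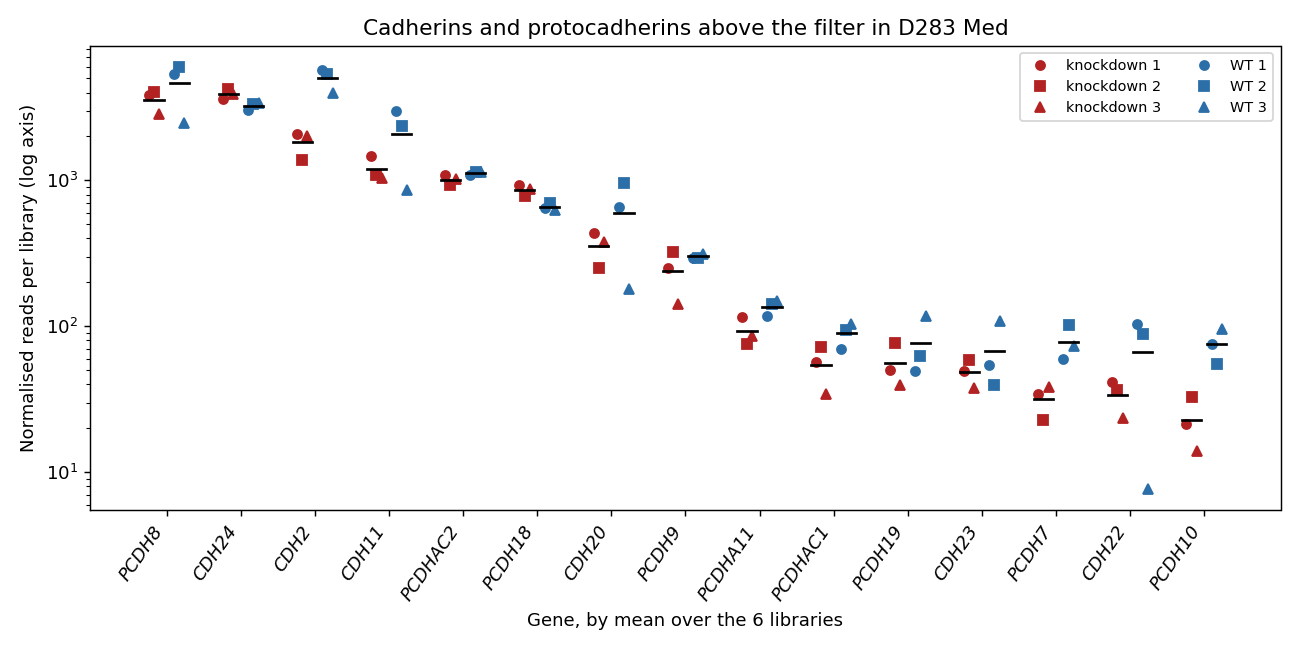
Normalised reads on a log axis in each library for the 15 tested genes, ordered by mean level, with knockdown (red) left of WT (blue) and a bar at each group mean. CDH2, PCDH7 and PCDH10 have separate groups with the knockdown libraries lower, while WT 3 falls well below WT 1 and WT 2 in CDH11, CDH20, CDH22 and PCDH8.

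CDH2 was the only type I cadherin among the tested members, and it showed the largest difference of the 15. Its gene spans 27950966 to 28177446 of chromosome 18, read from the minus strand (GENCODE 29, GRCh38). It had 2096, 1378 and 2010 normalised reads in knockdown libraries 1, 2 and 3, against 5723, 5394 and 3948 in WT libraries 1, 2 and 3. Every knockdown library lay below every WT library, and knockdown 2 was the lowest of all. The means were 1828 ± 392 in knockdown and 5022 ± 945 in WT (SD, n = 3 each), a fall of 2.75-fold with a difference of −1.41 (SE 0.18, limma adjusted p = 0.00656). The call held in each of 15 alternative fits, with differences between −1.57 and −1.23 and adjusted p between 0.000108 and 0.0393.

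The other type I cadherins were barely measured. CDH1, E-cadherin of epithelia, had 0, 8 and 1 reads in knockdown and 0, 0 and 2 in WT. CDH3, P-cadherin, had 4 to 9 reads in knockdown and 6 to 20 in WT, and CDH4, R-cadherin of retina and brain, had 0 reads in each knockdown library and 2, 0 and 6 in WT. CDH15, M-cadherin, also lay under the filter. Per kb of exon, CDH2 averaged 369 ± 79.1 normalised reads in knockdown and 1014 ± 191 in WT. In WT it thus stood at the top of the family, above PCDH8 (898 ± 363) and CDH24 (866 ± 51.3) by less than its own SD. In knockdown it came after CDH24 (1047 ± 84.6) and PCDH8 (695 ± 121), beyond the spread of each, with PCDHAC2 next at 160 ± 13.2 (SD, n = 3 throughout).

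No type II cadherin passed the test with all 6 libraries. CDH24, which binds catenins, had 3617, 4250 and 3910 normalised reads in knockdown and 3026, 3319 and 3389 in WT. All knockdown libraries were higher, by 1.21-fold on average, but the difference of 0.27 (SE 0.11) did not pass (limma, adjusted p = 0.207). It was positive and uncalled in all 15 alternatives.

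CDH11, a cadherin of mesenchyme and neurons, had 1470, 1082 and 1039 normalised reads in knockdown, against 2999, 2361 and 863.5 in WT. WT 3 lay below all knockdown libraries, so the groups overlapped. With all 6 libraries the difference was −0.60 (SE 0.35, limma adjusted p = 0.343), and without WT 3 it was −1.10 (adjusted p = 0.0138). Without WT 1 it was −0.26 (adjusted p = 0.670).

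CDH20 of neural crest and brain behaved alike, with 438, 251.5 and 381 normalised reads in knockdown and 659, 963 and 179 in WT. WT 3 was again the lowest of the 6, and the difference was −0.43 (SE 0.40, limma adjusted p = 0.565), or −0.998 without WT 3 (adjusted p = 0.0314). Without WT 2 it was −0.03 (adjusted p = 0.978) and without WT 1 it was −0.27. CDH22, a brain cadherin, had 41.5, 36.5 and 23.6 in knockdown and 104, 88.3 and 7.68 in WT. That last value rested on 10 reads, and the difference was −0.27 (SE 0.29, limma adjusted p = 0.626), or −0.69 without WT 3 (adjusted p = 0.0358). Without WT 1 it was −0.03 (adjusted p = 0.964) and without WT 2 it was −0.10. CDH20 is on chromosome 18, CDH11 on chromosome 16 and CDH22 on chromosome 20.

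The atypical cadherin CDH23, part of the tip link of sensory hair cells, had 49.6, 59.1 and 37.6 normalised reads in knockdown and 54.2, 39.7 and 109 in WT. WT 3 was here the highest, and the groups overlapped (difference −0.18, SE 0.18, limma adjusted p = 0.606). Its sign turned to 0.02 without WT 3.

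**Figure D2:**
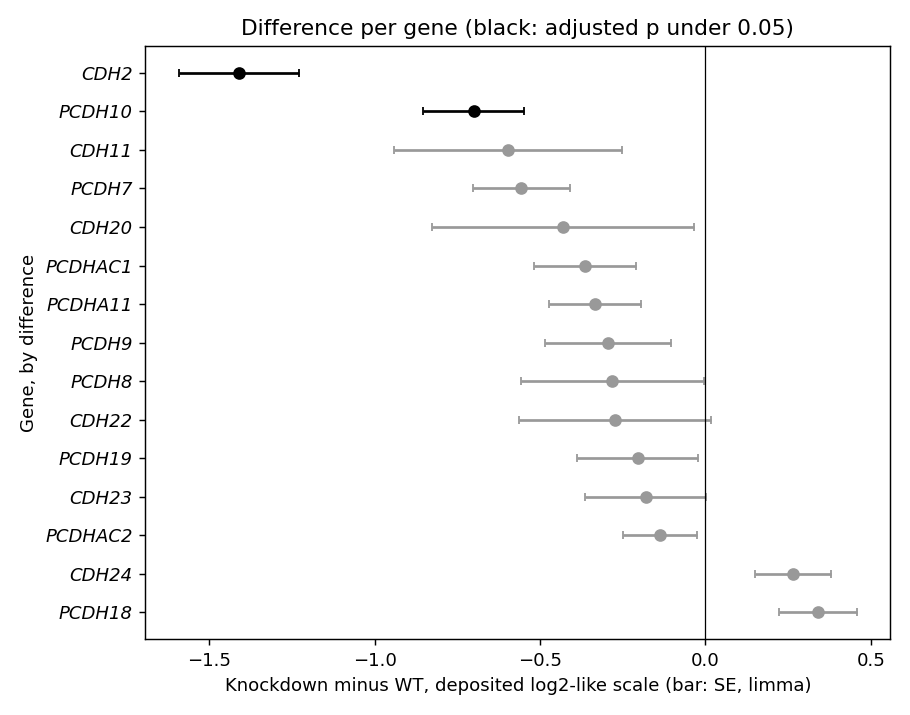
Difference between knockdown and WT on the deposited log2-like scale for the 15 tested genes, with its SE from limma. CDH2 at −1.41 and PCDH10 at −0.70 pass the threshold (black), and CDH24 and PCDH18 are the genes with a positive difference.

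Among the delta protocadherins only PCDH10 was called, and it entered the test through its WT libraries. PCDH10, a delta-2 member that binds the WAVE actin regulators, lies on chromosome 4 at 133149315 to 133208606 on the plus strand. It had 21.3, 32.7 and 13.9 normalised reads in knockdown, from 21, 26 and 13 reads, against 76.1, 55.5 and 95.9 in WT, from 52, 88 and 125 reads. No library of the groups overlapped. The means were 22.6 ± 9.45 in knockdown and 75.9 ± 20.2 in WT (SD, n = 3 each), a fall of 3.35-fold, with a difference of −0.70 (SE 0.15, limma adjusted p = 0.0349). On the recovered reads, where weak genes are not compressed, voom gave −1.77 (limma adjusted p = 0.0480). The call did not survive the loss of any single library. Adjusted p was 0.135, 0.0591 and 0.137 without knockdown 1, 2 and 3, and 0.0551, 0.0516 and 0.0640 without WT 1, 2 and 3, with differences of −0.80 to −0.61.

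PCDH7, a delta-1 member, had 34.4, 22.6 and 38.6 normalised reads in knockdown and 60.0, 102 and 73.7 in WT. The groups did not overlap and the ratio of means was 2.47-fold lower, yet the difference of −0.56 (SE 0.15) missed the threshold (limma, adjusted p = 0.0621). It passed without WT 1 (−0.65, adjusted p = 0.0466) and with library weights (−0.57, adjusted p = 0.0270).

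PCDH18, a delta-2 member, had 931, 783 and 869 normalised reads in knockdown and 647, 698 and 629 in WT. All knockdown libraries were higher, with a difference of 0.34 (SE 0.12) that did not pass (limma, adjusted p = 0.132, and 0.0774 to 0.364 over 15 alternatives). PCDH18 lies 4310 kb from PCDH10 on chromosome 4, and the differences of these genes had opposite signs.

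PCDH8, known as arcadlin in rat neurons, where it is induced by activity, was the most abundant protocadherin. It had 3820, 4045.5 and 2870 normalised reads in knockdown and 5393, 5985 and 2494 in WT. WT 3 was the lowest library, and the difference was −0.28 (SE 0.28, limma adjusted p = 0.595), or −0.67 without WT 3 (adjusted p = 0.0495). Without WT 2 it was −0.05 (adjusted p = 0.940) and without WT 1 it was −0.13. PCDH9, a delta-1 member, had 250, 321 and 143 in knockdown and 294, 295 and 315 in WT, where the spread was small (difference −0.29, SE 0.19, limma adjusted p = 0.401). Knockdown 3 set most of that difference, which was −0.07 without it (adjusted p = 0.891). PCDH19, a delta-2 gene of the X chromosome linked to epilepsy, had 50.6, 76.7 and 39.7 in knockdown and 49.8, 63.1 and 117 in WT (−0.20, SE 0.18, limma adjusted p = 0.555), and the difference was −0.02 without WT 3. The groups of both genes overlapped. The other 5 non-clustered genes, PCDH1, PCDH11X, PCDH12, PCDH15 and PCDH17, lay under the filter.

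**Figure D3:**
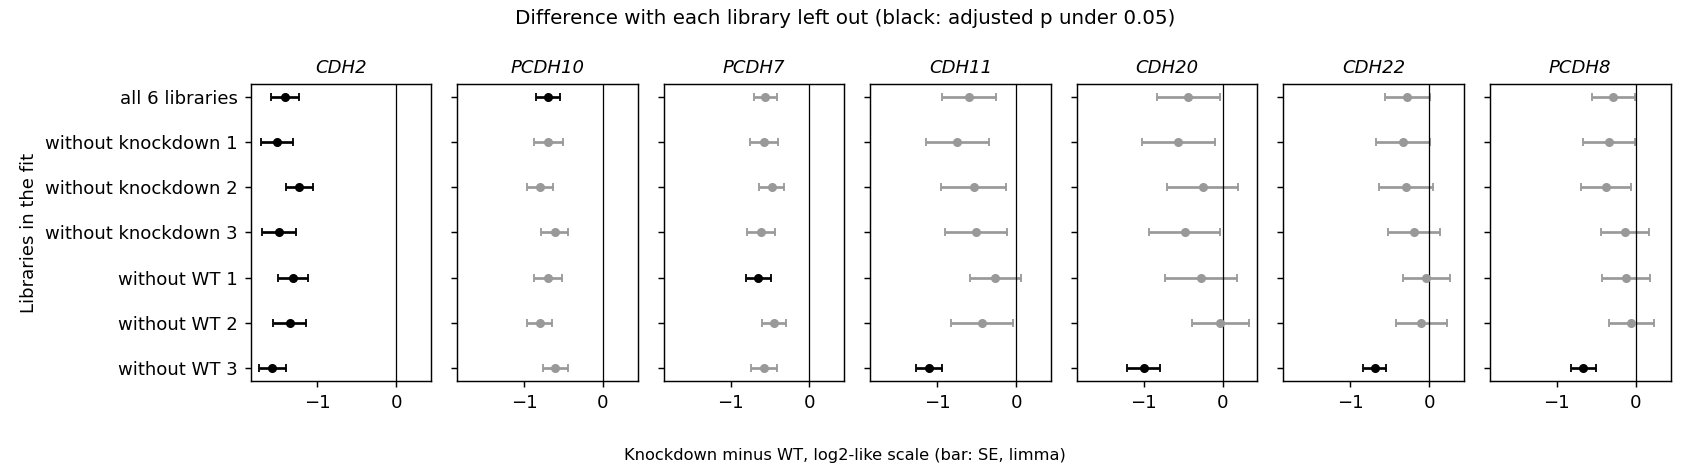
Difference between knockdown and WT (log2-like scale, bar for the SE) with all 6 libraries and with each left out, for 7 genes, black where the adjusted p was under 0.05. CDH2 is black in every fit, PCDH10 in the fit of all libraries alone, and CDH11, CDH20, CDH22 and PCDH8 in the fit without WT 3 alone.

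The fit without WT 3 called 5 members lower, CDH2, CDH11, CDH20, CDH22 and PCDH8, where 2.48% of all tested genes fell. WT 3 thus decided the calls of 4 members, whose differences shrank when WT 1 or WT 2 was left out instead. It was the lowest of the WT libraries in CDH2 and the highest in PCDH10, PCDH19 and CDH23, so it was not low in the family as a whole. Over all tested genes, the fit with library weights gave WT 1 the lowest weight (0.47) and WT 3 the next (0.56). WT 3 was thus not the library weighted lowest. What sets WT 3 apart in these members was not tested.

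In the chromosome 5 array a few alpha genes carried most of the signal. PCDHAC2, the C-type gene nearest the shared constant exons, had 1089, 924 and 1027 normalised reads in knockdown and 1089, 1138 and 1144 in WT. The groups were separate by less than 1 normalised read, and the difference was −0.14 (SE 0.11, limma adjusted p = 0.509). PCDHA11 led the alternate exons, with 115, 75.5 and 85.8 in knockdown and 119, 143 and 148 in WT (−0.33, SE 0.14, limma adjusted p = 0.193). PCDHAC1 had 56.7, 71.7 and 34.3 in knockdown and 70.3, 94.0 and 104 in WT, which overlapped (−0.36, SE 0.15, limma adjusted p = 0.201). None of these 3 was called in any alternative.

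The alternate alpha genes neighbouring PCDHA11 had far fewer reads. PCDHA10 had 5, 9 and 2 reads in knockdown and 14, 17 and 26 in WT, and PCDHA12 had 9, 0 and 7 in knockdown and 16, 21 and 21 in WT. The other 8 alternate alpha genes, PCDHA8 with its TGTCGCT and PCDHA9 without it among them, had at most 6 reads in any library. The constant exons are common to all alpha genes, and 3.36 of the 6.28 kb of PCDHA11 exons are its own. The sources used here do not say how reads on shared exons were assigned, so values of single alpha and gamma genes are uncertain.

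Summed over each cluster, levels were lower in knockdown for the alpha and the beta genes. The alpha C-type genes summed to 1145, 996 and 1061 normalised reads in knockdown and 1160, 1232 and 1248 in WT, mostly PCDHAC2. The 11 alternate alpha genes summed to 136, 93.1 and 109 normalised reads in knockdown and 165, 177 and 196 in WT, with PCDHA11 the main part. The 14 beta genes, which have no constant exons, summed to 59.7, 42.8 and 38.6 in knockdown and 65.9, 97.8 and 116 in WT, from 34 to 59 reads in knockdown and 45 to 155 in WT. The groups did not overlap in any of these sums, but the nearest libraries were close. These had 1145 and 1160 for the alpha C-type genes and 59.7 and 65.9 for the beta genes. Among all tested single genes, 13.6% were separate with knockdown lower. The 21 gamma genes summed to 92.1, 78.0 and 79.4 in knockdown and 83.5, 92.7 and 125 in WT, which overlapped. Such sums over the members carry no test, and no single beta or gamma gene reached the filter.

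**Figure D4:**
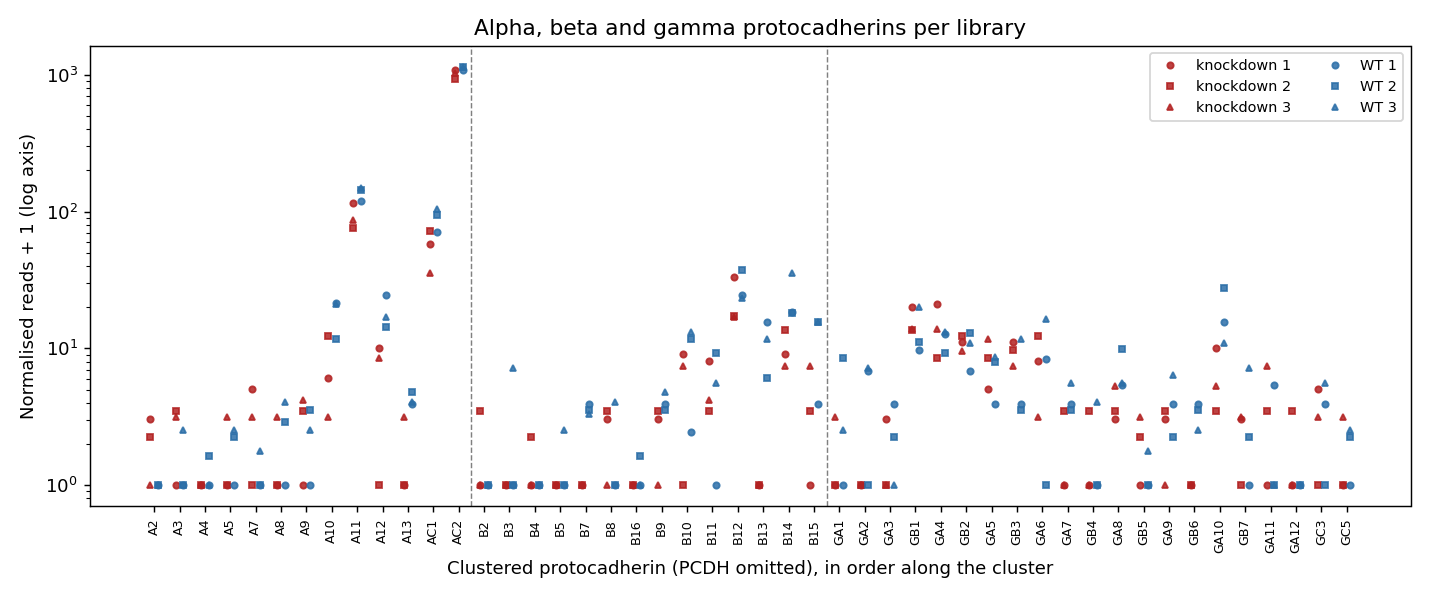
Normalised reads plus 1, on a log axis, of the 48 alpha, beta and gamma protocadherins in each library, in their order along the array, with dashed lines between the clusters. PCDHAC2 stands near 1000 in all libraries, and PCDHA11 and PCDHAC1 follow. The beta and gamma genes reach at most 36.6 normalised reads (PCDHB12 in WT 2), with many of them near the floor.

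Of the 69 members under the filter, 14 had 0 reads in all knockdown libraries and 4 had 0 reads in all WT libraries. Over all 18227 rows under the filter these shares were 23.7% and 11.6%, and WT 2 and WT 3 were the deepest libraries. With a read in each WT library and none in knockdown there were 4, namely CDH10, PCDHB13, PCDHB7 and PCDHGB6, and 0 showed the opposite. Over all rows under the filter these shares were 1.12% and 0.313%. PCDHB13 had 14.6, 5.05 and 10.7 normalised reads in WT, from 10, 8 and 14 reads, and CDH10, a type II cadherin, had 8.79, 3.15 and 6.14 in WT, from 6, 5 and 8 reads. If reads are independent, a count of 0 allows up to 3 reads, or 3.04, 3.77 and 3.22 normalised reads in knockdown 1, 2 and 3. The CDH10 value of WT 2 lies within that limit. Among the members, counts of 2 were more common than counts of 1, so the limit may be too low. With no filter both passed (limma, adjusted p = 0.00937 for PCDHB13 and 0.0334 for CDH10), where 1.22% of 31785 rows fell. These calls rest on at most 14 reads in any library, and on knockdown values that all sit at the lowest value without spread. Both genes were named for those same counts, so the p-values add no separate support.

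Among genes that work with cadherins, few passed the test. Of 9 tested catenins and junction linkers, VCL rose and none fell, with a median of 0.05. VCL, vinculin, which links alpha-catenin to actin under tension, had 6579, 7551 and 7184 normalised reads in knockdown and 5081, 5093 and 4146 in WT, without overlap (1.49-fold, difference 0.57, SE 0.13, limma adjusted p = 0.0377). The call was lost without knockdown 1, 2 or 3 and without WT 2 or 3, with adjusted p between 0.0648 and 0.145. CTNNB1, beta-catenin, which binds the CDH2 tail, averaged 11649 ± 614 in knockdown and 11665 ± 1548 in WT (SD, n = 3; difference 0.0047, SE 0.14, limma adjusted p = 0.989).

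Of 10 proteases and subunits that process cadherins, ADAM10 fell and none rose, with a median of −0.17. ADAM10, which sheds the N-cadherin ectodomain, had 2555, 2992 and 2788 normalised reads in knockdown and 4435, 4497 and 3699 in WT, without overlap (1.52-fold lower, −0.58, SE 0.12, limma adjusted p = 0.0330). Its call was lost without knockdown 1, 2 or 3 and without WT 2, with adjusted p between 0.0730 and 0.152.

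The large atypical cadherins of the FAT, Dachsous and CELSR groups, which set tissue polarity, had no call among 8 tested. Of these 7 were lower, with a median of −0.31. The share of all tested genes with a lower mean was 49.0%, here and for the lists below. At an unadjusted p under 0.05, 3 were lower, and voom called 0 (limma). The closest was FAT4 with 1037, 1192 and 1162 normalised reads in knockdown and 1303, 1727 and 1856 in WT (−0.48, SE 0.14, limma adjusted p = 0.0887). The 5 tested calsyntenins and cadherin-related genes were all lower (median −0.34), with 0 called, 1 at an unadjusted p under 0.05 and 0 by voom. In each of the 5, WT 3 was the lowest WT library and lay within or below the knockdown range. The 3 tested desmosomal genes (median −0.05) had 0 called, 1 at an unadjusted p under 0.05 and 0 by voom (limma).

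The 12 tested regulators of the chromosome 5 array, among them CTCF and cohesin, had a median of 0.01, with 0 called, 0 at an unadjusted p under 0.05 and 0 by voom (limma). The 11 genes of the WAVE complex and FAK kinases had a median of 0.02, with 0 called, 3 at an unadjusted p under 0.05 and 0 by voom (limma). The 6 tested transcription factors known to repress or switch cadherins in epithelial-mesenchymal transition had a median of −0.04, with 0 called, 3 at an unadjusted p under 0.05 and 1 by voom (limma). Of these, ZEB2 was nearest, with 505, 542 and 554 normalised reads in knockdown and 1013, 948 and 658 in WT (−0.60, SE 0.15, limma adjusted p = 0.0582). In the list of line markers NPR3, a natriuretic peptide receptor, fell. It had 8449, 5841 and 8986 normalised reads in knockdown and 13197, 14684 and 11277 in WT, without overlap (1.68-fold lower, −0.76, SE 0.18, limma adjusted p = 0.0437). The call held in 1 of 6 fits with a library left out, that without WT 3, and adjusted p was 0.0614 to 0.122 in the others. None of the tested epithelial, fibroblast or endothelial markers was called (limma). Of those, 0 epithelial, 0 fibroblast and 1 endothelial gene had an unadjusted p under 0.05, and voom called 0.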

How the data were processed

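RNA sequencing of 6 libraries gave 1 value per gene and library. The submitters' processing notes name STAR, DESeq, Trim Galore, CASAVA 1.8.2, MultiQC and FastQC, and the build GRCh38. Counter, annotation and strand setting are not given there, so overlapping or near-identical genes may share reads. The deposited values are on a log2-like scale. The file's name and the values themselves show that it is a variance-stabilised scale with size factors.

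The lowest value, 5.79, stands for a count of 0 and fixes the function (offset 55.2). Its inversion gave normalised reads, and 100% of values became whole reads, within 0.01, at a fixed size factor per library. Depth was 17299671 to 38790342 reads. Intervals and floors cover counting error only.

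Genes were tested with limma 3.58.1 in R 4.3.3 (empirical Bayes with a trend, two-sided, Benjamini-Hochberg over 13558 kept rows, threshold 0.05), knockdown minus WT, with no covariate. An exact permutation test of 3 against 3 cannot go below p = 0.1. The fit was repeated with 2 other filters, 2 other scalings, other variance models, weighted libraries, a replicate block, voom on recovered reads and each library left out. The 13 gene lists (118 genes) were described by counts and medians. Members and lists were chosen with earlier results of these data known. Named with values were called members, the 8 highest and the largest uncalled differences, plus called list genes. Genes outside that rule (CTNNB1, FAT4, ZEB2, marker genes, members under the filter, neighbours) were chosen after their values were seen. Exon lengths and coordinates are from GENCODE 29, matched by name for all 84 members.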

Additional observations from a re-analysis of the deposited data

How the results depend on the processing

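CDH2 kept its call in all 15 alternatives tried. The number of cadherins and protocadherins called, 2, became 4 with no filter, 1 with the stricter filter (mean at least 2 above the lowest value, which leaves PCDH10 out) and 1 with the replicate block, and ran from 1 to 5 with a library left out. PCDH10 was called in 7 of 14 alternatives. The count over all genes, 556, was 1213 with library weights and 221 with the replicate block, and ran from 56 (without knockdown 1) to 728 (without WT 1). The count among listed genes, 3, was 9 with library weights and 0 with the replicate block (limma, with 16 of 78 at an unadjusted p under 0.05 there, and 4 called by voom without the block), and 0 to 4 with a library left out. Over its 14 alternatives CDH23 ran from −0.38 to 0.021, with −0.33 without WT 2 and 0.021 without WT 3. The cause of these shifts was not tested. Same-numbered libraries did not deviate together (correlations −0.0045, −0.25 and 0.0046 for numbers 1, 2 and 3), so the numbers were not taken to pair the samples. MSI1 stayed uncalled in all 15 alternatives. PCDH10 and CDH22 had 10 to 140 reads per library, and members under the filter had at most 58, which limits what could be detected in them.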

Other observations

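None of the tested genomic neighbours of CDH2, PCDH10 or the chromosome 5 array was called. Within 2 Mb of CDH2, 5 other genes were tested, with differences from 0.06 to 0.61 and a median of 0.16, and 0 were called (limma, 2 at an unadjusted p under 0.05, 0 by voom). The single tested neighbour of PCDH10 in that distance, PABPC4L, differed by −0.09 (SE 0.13, limma adjusted p = 0.727). Around the chromosome 5 array (140786136 to 141512979, GENCODE 29 on GRCh38), 40 other genes were tested within 2 Mb. Their differences ran from −0.43 to 0.70 with a median of −0.05, and 0 were called (limma, 3 at an unadjusted p under 0.05, 0 by voom). The highest was that of CXXC5 (0.70, SE 0.18, limma adjusted p = 0.0588). TAF7, which lies inside the array between the beta and gamma clusters, differed by −0.34 (SE 0.12, limma adjusted p = 0.142).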
